A study of Mus musculus with 20 samples.

Results

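SR proteins are splicing factors with arginine- and serine-rich tails, and hnRNPs are RNA-binding proteins that coat nascent transcripts. The 45 genes described here encode members of these families and the kinases that act on SR proteins, and were taken by symbol from a fixed list out of 51826 genes in the count table. They comprise 10 SR proteins, 11 SR-related proteins and co-factors, 6 kinases and 18 hnRNPs. All 45 symbols were found, and all 45 passed the filter on low counts.

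As background, SR proteins bind exonic enhancers and mostly promote exon inclusion, while many hnRNPs bind silencers and oppose it, so that the balance between them shifts splice site choice. SRPK kinases phosphorylate SR proteins in the cytoplasm and allow their import into the nucleus, and CLK kinases phosphorylate them further in nuclear speckles. Many transcripts of both families carry poison exons or retained introns by which the proteins limit their own level.

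Total RNA from 14 mouse lung metastases and 6 primary sarcomas was sequenced after removal of ribosomal RNA, and the series title links the long non-coding RNA Neat1 with splicing in sarcoma metastasis. Every tumour came from mice of mixed background, and each metastasis was matched by its title with 1 primary tumour, which gave 6 matched sets with between 1 and 4 metastases each. In what follows, metastasis 3-2 is the metastasis numbered 2 in set 3. The sources used here do not give the tumour model, the age of the mice or whether metastases of a set came from 1 animal. The p-values therefore cover only the spread among these libraries, part of which may be technical. Total counts were 20603620 to 36824370 per library. Whole tissue was used, so a change in the share of cells that express a gene cannot be told apart from a change of RNA per cell.

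Several kinds of tissue signal moved with tumour type. Of 22 lung epithelium markers, 19 rose in metastases; Scgb1a1, a club cell gene, had a median of 239 CPM in metastases and 0.270 CPM in primary tumours (CPM is the count scaled to a fixed library total). Of 21 skeletal muscle markers, 13 fell; Ckm had a median of 2.12 CPM in metastases and 264 CPM in primary tumours, but 0.321 CPM in primary tumour 4 and was at 0 in primary tumour 6. Of 20 cell cycle markers, 6 fell, and of 15 T and NK cell markers, 5 fell. All 8 red cell markers rose. The part of these tissue signals in the results below was not tested beyond the fits that carry a marker index as a covariate.

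A group of 3 libraries stood apart from the other 17: metastases 3-2 and 4-1 and primary tumour 4. The RNA Rmrp, a small structured RNA, made up 0.00172% to 0.0117% of their counts, against 0.0717% to 0.992% in the other 17. In these 3 libraries the level of a gene followed the share of G and C bases in its transcript. Across 12235 genes, the slope of log2 CPM (relative to the median library) on GC content was -1.51 per 10 percentage points in metastasis 3-2, -2.14 in metastasis 4-1 and -2.62 in primary tumour 4, against -0.47 to 0.34 in the other 17. The members' transcripts had a median GC content of 44.1%, against 49.7% for those genes, and the members' counts made up 1.21% to 1.91% of the total in the 3 libraries against 0.651% to 1.04% in the other 17. The counts of members and the members described singly below are also given without the 3 libraries and after a smooth trend on GC content was removed from each library. Both settings were chosen after the libraries had been looked at. In each of the 3 libraries the GC step left the members' levels with a positive correlation with GC content, as given below.

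The sequences of 8 members are shown for their base composition: the 3 members that stood furthest above the median of the other 17 libraries in primary tumour 4 (Clk1, Srsf10, Luc7l3), the 3 that stood furthest below it there (Srsf4, Srrm2, Clk3), and the 2 that fell in metastases (Hnrnpc, Srsf7). Each is the middle 120 bases of the longest uninterrupted coding part of an exon in the longest coding transcript, read 5′ to 3′ from the GENCODE transcripts of GRCm38 (mm10), with G and C in capitals.
Clk1: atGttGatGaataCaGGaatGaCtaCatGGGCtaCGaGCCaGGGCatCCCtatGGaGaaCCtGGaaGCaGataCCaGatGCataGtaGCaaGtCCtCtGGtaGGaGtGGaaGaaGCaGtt
Srsf10: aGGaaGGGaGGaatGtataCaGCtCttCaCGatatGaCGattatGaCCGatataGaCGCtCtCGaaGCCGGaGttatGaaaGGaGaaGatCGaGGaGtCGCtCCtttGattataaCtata
Luc7l3: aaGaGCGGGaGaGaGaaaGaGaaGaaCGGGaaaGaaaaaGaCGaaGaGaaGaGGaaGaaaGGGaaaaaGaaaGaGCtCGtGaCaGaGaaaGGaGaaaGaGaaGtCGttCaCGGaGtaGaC
Srsf4: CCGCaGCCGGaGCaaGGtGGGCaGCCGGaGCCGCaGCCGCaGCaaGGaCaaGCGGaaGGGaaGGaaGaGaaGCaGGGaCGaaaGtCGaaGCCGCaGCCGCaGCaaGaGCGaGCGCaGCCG
Srrm2: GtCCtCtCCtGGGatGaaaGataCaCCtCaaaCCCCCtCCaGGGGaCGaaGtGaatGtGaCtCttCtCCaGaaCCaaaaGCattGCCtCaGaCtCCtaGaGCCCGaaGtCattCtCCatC
Clk3: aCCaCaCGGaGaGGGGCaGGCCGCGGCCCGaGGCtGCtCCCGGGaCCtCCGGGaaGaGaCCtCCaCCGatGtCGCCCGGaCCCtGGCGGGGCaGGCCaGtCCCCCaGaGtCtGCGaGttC
Hnrnpc: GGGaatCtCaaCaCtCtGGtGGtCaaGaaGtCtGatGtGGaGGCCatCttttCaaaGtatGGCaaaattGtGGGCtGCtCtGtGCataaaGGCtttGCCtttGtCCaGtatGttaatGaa
Srsf7: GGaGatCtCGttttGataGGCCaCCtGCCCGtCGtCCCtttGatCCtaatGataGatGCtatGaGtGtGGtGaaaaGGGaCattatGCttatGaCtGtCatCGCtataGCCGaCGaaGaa

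These windows lie at chr1:58421136-58421255 (minus strand, exon 3) for Clk1, chr4:135863061-135863180 (plus strand, exon 4) for Srsf10, chr11:94296966-94297085 (minus strand, exon 8) for Luc7l3, chr4:131900607-131900726 (plus strand, exon 6) for Srsf4, chr17:23818346-23818465 (plus strand, exon 11) for Srrm2, chr9:57765236-57765355 (minus strand, exon 1) for Clk3, chr14:52084176-52084295 (minus strand, exon 3) for Hnrnpc and chr17:80205269-80205388 (minus strand, exon 3) for Srsf7. The Clk1, Srsf10 and Luc7l3 windows hold 48.3%, 43.3% and 45% G and C, and the Srsf4, Srrm2 and Clk3 windows hold 68.3%, 51.7% and 73.3%. Over the whole transcript the first 3 are at 40.9%, 41.5% and 41.6%, and the others at 56.9%, 52.3% and 58.8%.

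**Figure D1:**
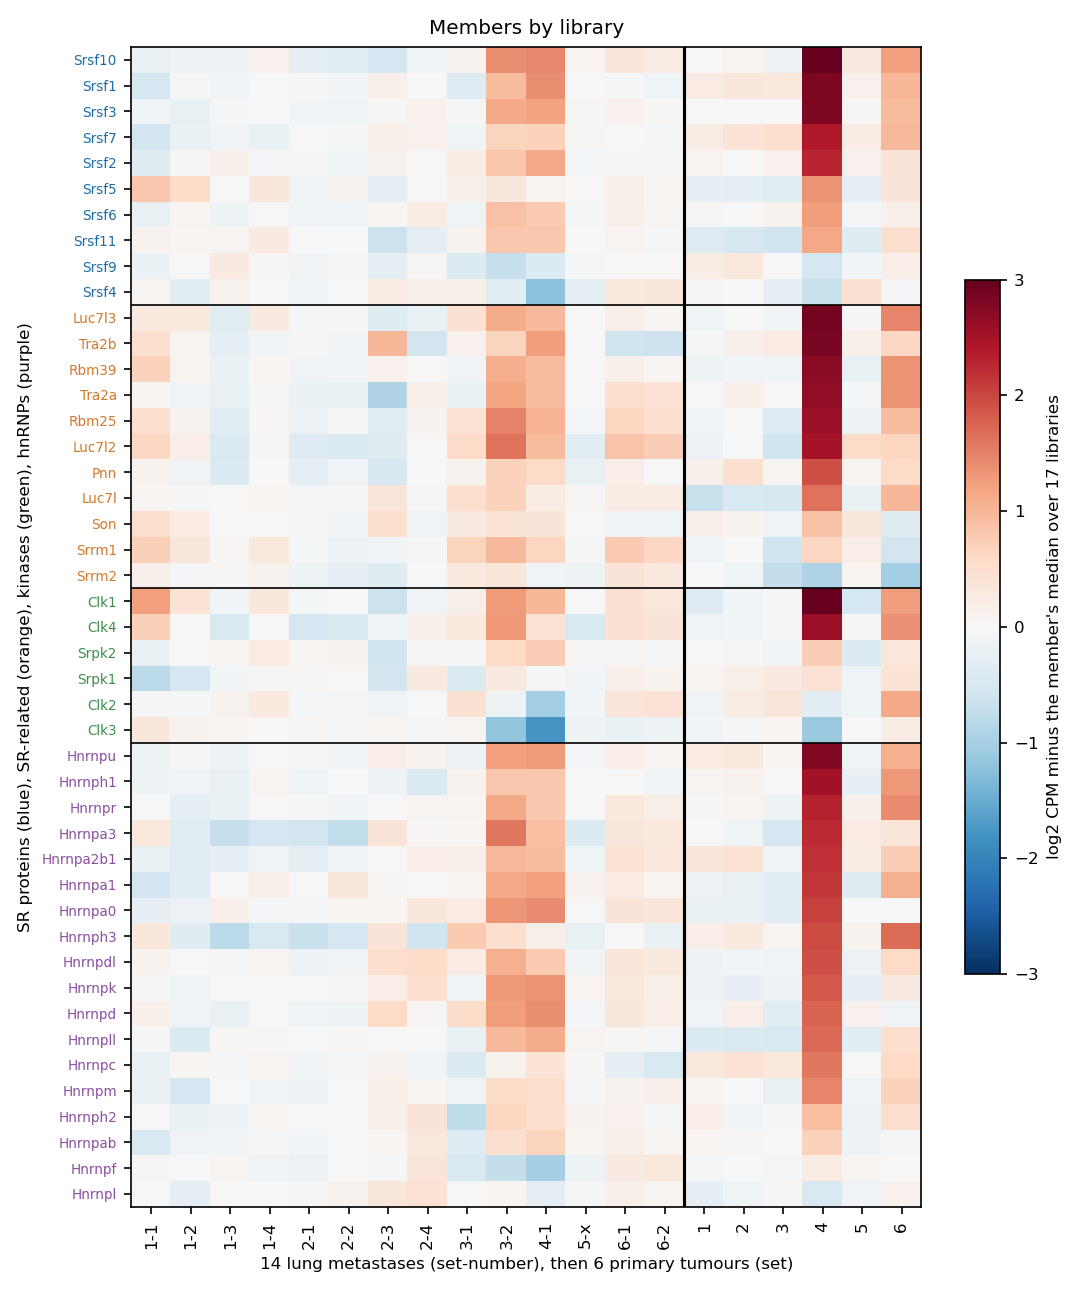
Heat map of 45 members (rows, by role) in 14 lung metastases (left of the line) and 6 primary tumours (right); colour is log2 CPM minus the member's median over 17 libraries, clipped at 3. Primary tumour 4 is dark for most members and light or blue for Srsf4, Srsf9, Srrm2, Clk2, Clk3 and Hnrnpl.

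Per kilobase of annotated exons, the hnRNP genes covered the whole range of levels. Taking medians over the 12 metastases other than 3-2 and 4-1, Hnrnpab stood highest with 124 CPM per kilobase (range 91.6 to 156), followed by Hnrnpa0 at 57.3, Hnrnpl at 56.4 and Hnrnpk at 52.1. Those after Hnrnpab overlapped in range and are not separated by their spread. The lowest medians were those of Hnrnpa3 (3.27) and Hnrnph3 (3.03). Kinases were low throughout, with Clk1 highest at 13.8 (range 8.26 to 30.2) and Clk3 lowest at 5.38 CPM per kilobase. Hnrnpa1, an hnRNP that most cells make in quantity, had 7.10 CPM per kilobase here, and 46.4% of the 50-base words of its longest transcript also occur in transcripts of 19 other genes, so that its level from the deposited counts is uncertain. Other members with many shared words were Hnrnpf (67.3%), Srsf4 (65.4%), Hnrnpk (37.8%), Srsf2 (35.2%) and Srsf3 (31.5%). Hnrnpab, the highest per kilobase, shared 29%. Hnrnpa3, among the lowest, shared 28.25% with transcripts of 46 other genes. The exons of 17 members overlap a gene on the other strand, such as Srsf2 with Mettl23 and Srrm2 with Elob. The strand setting of the counting is unknown here. On the same strand, exons of Clk4, Hnrnpa3 and Hnrnpm overlap those of another gene.

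Primary tumour 4 was the highest of 20 libraries for 37 of the 45 members, where 23.1% of all genes tested had it highest, and the lowest for 1 (Hnrnpl), against 28.7% of all genes. Against the median of the 17 libraries its log2 CPM was higher by a median of 1.93 over the members, with a range of -1.12 (Clk3) to 3.02 (Clk1). The CLK kinases split by GC content. Clk1, at 40.9% GC, had 9.74 log2 CPM there against a median of 6.71 in the 17 libraries, and Clk4, at 43.3%, had 8.04 against 5.47. Clk2, at 55.9%, had 4.88 against 5.22, and Clk3, at 58.8%, had 4.37 against 5.49. The SRPK kinases did not follow this split. Srpk2, lowest in GC content among the kinases at 40.5%, had 7.97 against 7.23, and Srpk1, at 48.5%, had 7.22 against 6.78. Among SR proteins, Srsf1 had 10.87 log2 CPM in primary tumour 4 against a median of 8.08 in the 17 libraries, Srsf10 had 8.89 against 5.88, and Srsf3 had 9.71 against 6.92. Srsf9 and Srsf4, the 2 SR protein genes highest in GC content, were below the median of the 17, at 5.06 against 5.59 and 4.41 against 5.07. Among SR-related proteins, Rbm39, a U2AF-like splicing co-factor, had 10.86 against 8.15, while Srrm2 had 8.27 against 9.20. Among hnRNPs, Hnrnpu, a scaffold-attachment factor, had 12.04 against 9.27, while Hnrnpl, a binder of CA repeats, had 7.92 against 8.37.

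Of the 37 members under 50% GC all 37 stood above the median of the 17, as did 72.1% of all genes under 50%. Of the 8 members at 50% or more, 2 stood above it (Hnrnpa0 and Srrm1), as did 12.3% of all such genes. Across the 45 members the excess had a Pearson r of -0.785 with GC content, a description over genes of 1 library. Hnrnpa0, at 55.4% GC, stood 2.06 above and Srrm1, at 51.5%, 0.61 above. Some members low in GC content had a small excess, such as Srpk2 (40.5% GC, 0.74) and Hnrnph2 (41.05% GC, 0.89).

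**Figure D2:**
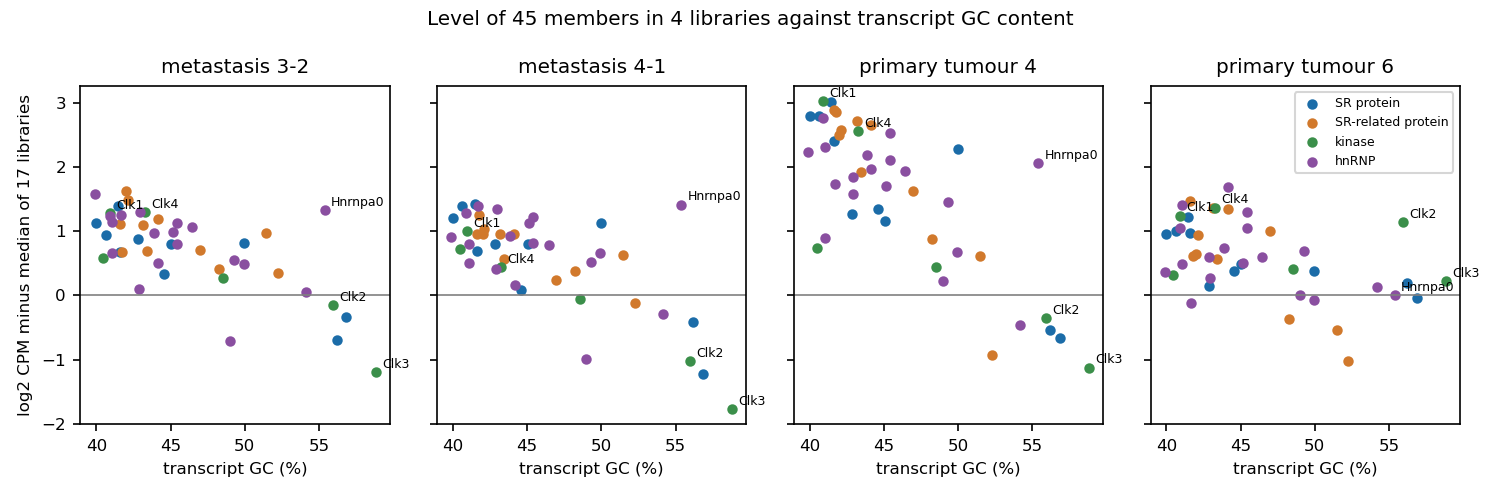
Log2 CPM minus the median of 17 libraries (y axis) against transcript GC content in percent (x axis) for 45 members, in metastases 3-2 and 4-1 and primary tumours 4 and 6. Clk1 and Clk4 lie at the left and high, Clk2 and Clk3 at the right and low in primary tumour 4, with Hnrnpa0 above its neighbours at 55.4% GC.

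With the GC trend removed, the members' median deviation from the median library in primary tumour 4 was 0.94, against -0.19 for all genes. The trend was fitted on genes with a mean log2 CPM over 2, while the -0.19 covers all genes tested. Hnrnpa0 then stood at 4.19, and Clk3 at 2.31, where Clk3 had been at -1.12 from the median of the 17 before. After the same step the members' deviation in primary tumour 4 had a positive r with GC content (0.580 over 45 members). The part of GC content in the members' excess was not tested. The other 2 libraries were lower, with medians of 0.37 in metastasis 3-2 and 0.17 in metastasis 4-1. Their r with GC content also turned positive, from -0.695 to 0.621 in metastasis 3-2 and from -0.710 to 0.731 in metastasis 4-1. Before that step the 3 libraries were together the 3 highest of 20 for 20 of the 45 members, where 7.52% of all genes showed this. Among the remaining 17, primary tumour 6 was the highest for 28 of 45 members, against 21.1% of all genes. Its median excess over the 17-library median was 0.60, and its GC slope was -0.47, the steepest of the 17. Across the 45 members its excess had an r of -0.491 with GC content. The excess was largest for Hnrnph3 (1.68), Luc7l3 (1.47) and Hnrnpr (1.41), and it was 1.15 for Clk2, at 55.9% GC. For Srrm2 primary tumour 6 was the lowest of the 17 libraries, at 8.18 log2 CPM.

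The spread of the members between libraries was described by the median SD. The SD of log2 CPM over the 17 libraries was 0.31 for members, against 0.62 for all genes tested. In the 14 metastases it was 0.39 (0.23 without 3-2 and 4-1), and in the 6 primary tumours 0.84 (0.34 without primary tumour 4). Srsf6, an SR protein, had the narrowest range over the 17 libraries, 7.31 to 7.74 log2 CPM. Some members departed in single libraries. Metastases 2-3 and 1-1 were chosen after their values were seen. Metastasis 2-3 was the lowest of the 17 for Clk1 (6.07), Srsf10 (5.35), Luc7l3 (5.92), Tra2a (5.59), Pnn (5.36), Srsf11 (6.95) and Srpk2 (6.63). It was the highest for Tra2b (6.53), Hnrnpa3 (4.68) and Hnrnpd (6.65). Metastasis 1-1 was the highest of the 17 for Srsf5 (8.12 log2 CPM), Son (9.39) and Clk3 (5.84), and stood at 7.94 for Clk1. For Srsf1, Srsf2, Srsf6, Srsf7, Srpk1, Hnrnpa1 and Hnrnpab it was the lowest of the 17. The share of all genes lowest or highest in these libraries was not counted, so these lists cannot be set against a background. Both libraries departed widely over all genes. In metastasis 2-3, 13.9% of genes stood over 1 log2 unit above their median over the 20 libraries, and 16.5% in metastasis 1-1. Over the 17 libraries this share ran from 3.59% (metastasis 1-4) to 17.4% (metastasis 3-1). Of the 45 members, 0 and 1 did so in metastases 2-3 and 1-1. Tra2a and Tra2b encode paralogous splicing activators, and in metastasis 2-3 the first was low while the second was high.

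Lung metastases were compared with primary tumours to ask which members change with metastasis. No member rose and 2 fell: Hnrnpc, an hnRNP that binds uridine tracts, and Srsf7, an SR protein with a zinc knuckle that also takes part in mRNA export and 3′ end processing (edgeR's quasi-likelihood test with the matched set as a block). Among 18452 genes tested, 7.34% rose and 6.44% fell, so 2 of 45 is no more than the background share. At an unadjusted p under 0.05, 2 members were higher and 5 lower, against 14.7% and 14.1% of all genes. The estimated log2 fold change was negative for 30 members and positive for 15, with a median of -0.18 against 0.00 for all genes. DESeq2 found no member higher and 3 lower, against 12.7% and 10.2% of all genes, and without the block 3 were lower, against 6.84%. The ranges of metastases and primary tumours overlapped for all 45 members, where 1.39% of all genes had ranges apart.

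**Figure D3:**
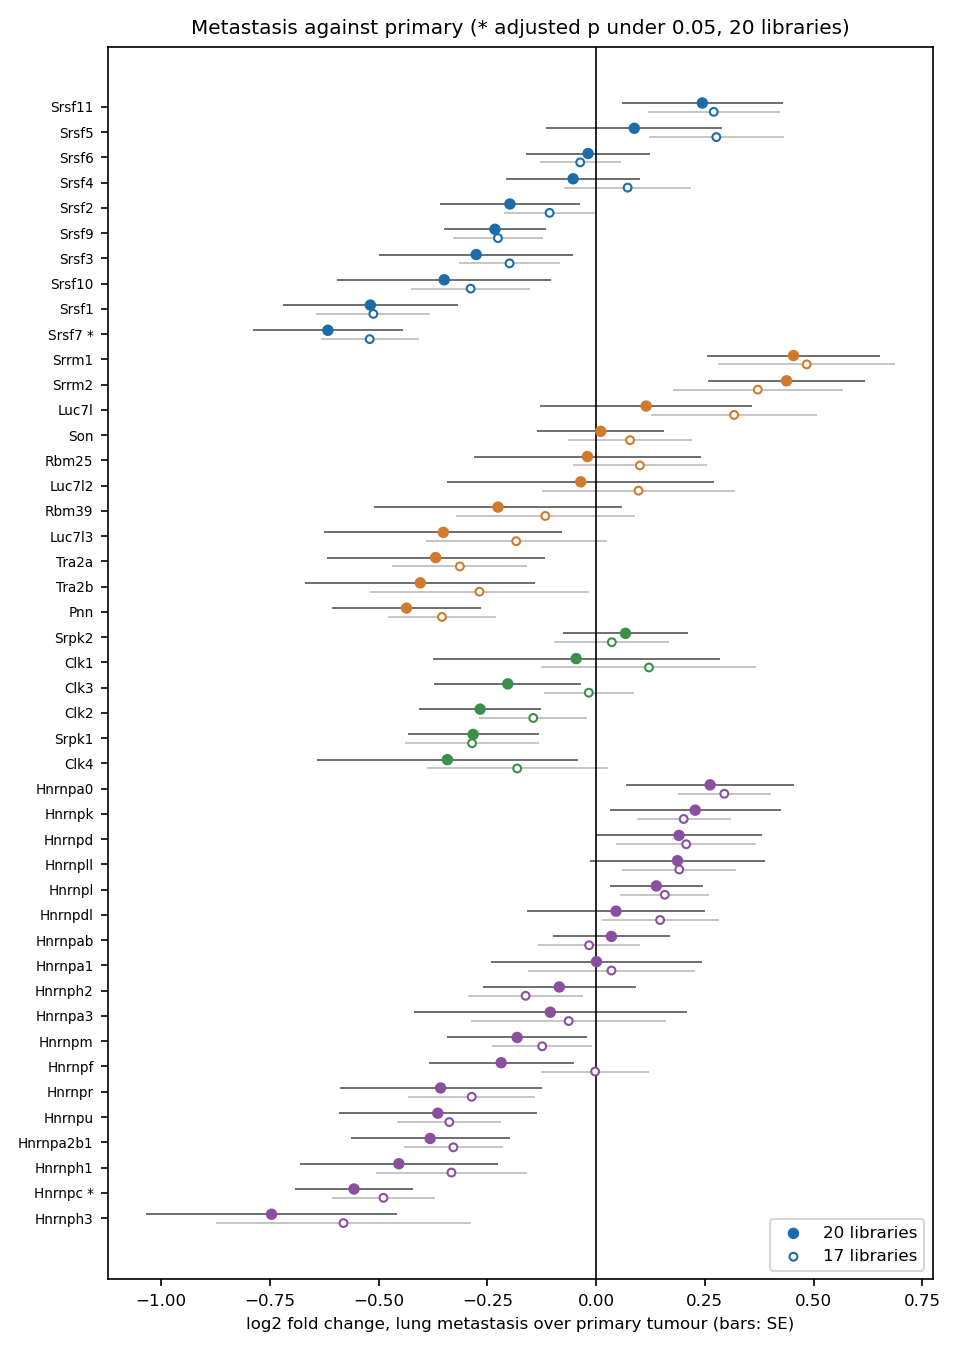
Log2 fold change of each member, lung metastasis over primary tumour, with its SE (bars), in 20 libraries (filled) and in the 17 without metastases 3-2 and 4-1 and primary tumour 4 (open). Most members lie near 0; Srsf7 and Hnrnpc, with stars, passed in the 20 libraries.

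Of the 10 SR proteins 1 fell, 2 had a positive and 8 a negative estimate. Srsf7 ran from 5.74 to 7.0 log2 CPM in the 14 metastases, with a median of 6.28, and from 6.52 to 8.71 in the 6 primary tumours, with a median of 6.77. Metastases 4-1 and 3-2 were the 2 highest metastases, primary tumour 4 was the highest of all, and the groups overlapped. Its level averaged 82.6 ± 20.5 CPM in metastases and 163 ± 127 CPM in primary tumours (SD, n = 14 and 6). The log2 fold change was -0.62 ± 0.173 (SE, adjusted p = 0.0270), lower in 6 of 6 sets by 0.18 to 1.71. Without the 3 libraries it was -0.52 (adjusted p = 0.00947), and with the GC trend removed -0.47 (adjusted p = 0.00604). It passed in 10 of 17 alternative fits, whose adjusted p ran from 0.00197 to 0.578, and did not pass without set 1, 2, 4 or 6, with the metastases of a set summed, or with the lung epithelium or cell cycle index as covariate.

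Srsf1, a founding member of the SR family that acts in constitutive and alternative splicing, ran from 7.55 to 9.48 log2 CPM in metastases (median 8.05) and from 8.21 to 10.87 in primary tumours (median 8.4). It was lower in 6 of 6 sets, by as little as 0.03 in set 3, whose metastasis 3-2 stood at 9.02. Its log2 fold change of -0.52 ± 0.201 did not pass (adjusted p = 0.0991), but it fell without the 3 libraries (-0.51 ± 0.131, adjusted p = 0.0191) and with the GC trend removed (-0.36 ± 0.0937, adjusted p = 0.0150). Srsf1 passed in 4 of 17 alternative fits, whose adjusted p ran from 0.00421 to 0.726. Among those it did not pass were the lung epithelium index (-0.23, adjusted p = 0.726) and the cell cycle index (-0.30, adjusted p = 0.540) as covariate. Nor did it pass with summed metastases (-0.49, adjusted p = 0.289). Srsf9 had 4.89 to 5.85 log2 CPM in metastases (median 5.54) and 5.06 to 5.89 in primary tumours (median 5.70), and its log2 fold change was -0.23 (adjusted p = 0.204), or -0.23 without the 3 libraries (adjusted p = 0.150) and -0.22 with the GC trend removed (adjusted p = 0.331). Its lowest values were in the 3 libraries that stood apart and metastasis 3-1. The exons of Srsf1 overlap those of Gm11508 on the other strand. The remaining 7 SR proteins had fold changes from -0.35 (Srsf10) to 0.24 (Srsf11), none past the threshold.

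Of the 11 SR-related proteins none passed. Pnn, a speckle protein that associates with the exon junction complex, ran from 5.36 to 6.54 log2 CPM in metastases (median 5.84) and from 5.93 to 7.77 in primary tumours (median 6.16). Its fold change was -0.44 ± 0.171 on the log2 scale (adjusted p = 0.103), lower in 5 of 6 sets. It was -0.35 without the 3 libraries (adjusted p = 0.0653) and -0.32 with the GC trend removed (adjusted p = 0.0930). The 2 serine and arginine repetitive matrix proteins, Srrm1 and Srrm2, had positive estimates. Srrm2, a large scaffold of nuclear speckles, ran from 8.83 to 9.58 log2 CPM in metastases (median 9.21) and from 8.18 to 9.27 in primary tumours (median 8.78). Primary tumours 6, 4 and 3 were the lowest 3 libraries, and the log2 fold change was 0.44 ± 0.181 (adjusted p = 0.120). For Srrm2 it was 0.37 without the 3 libraries (adjusted p = 0.204) and 0.47 with the GC trend removed (adjusted p = 0.121). Srrm1 had 6.22 to 7.37 log2 CPM in metastases (median 6.72) and 5.79 to 7.0 in primary tumours (median 6.35). It was higher in 4 of 6 sets, with 1.42 and 1.24 in sets 3 and 6 and at most 0.44 in the others, and its log2 fold change was 0.45 ± 0.199 (adjusted p = 0.144). Leaving out the 3 libraries gave 0.48 for Srrm1 (adjusted p = 0.116), and removing the GC trend gave 0.49 (adjusted p = 0.162). The other 8 ran from -0.40 (Tra2b) to 0.12 (Luc7l). Among the LUC7-like factors, which act with the U1 particle at 5′ splice sites, Luc7l3 was at -0.35, Luc7l2 at -0.04 and Luc7l at 0.12, with SEs of 0.274, 0.307 and 0.243.

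**Figure D4:**
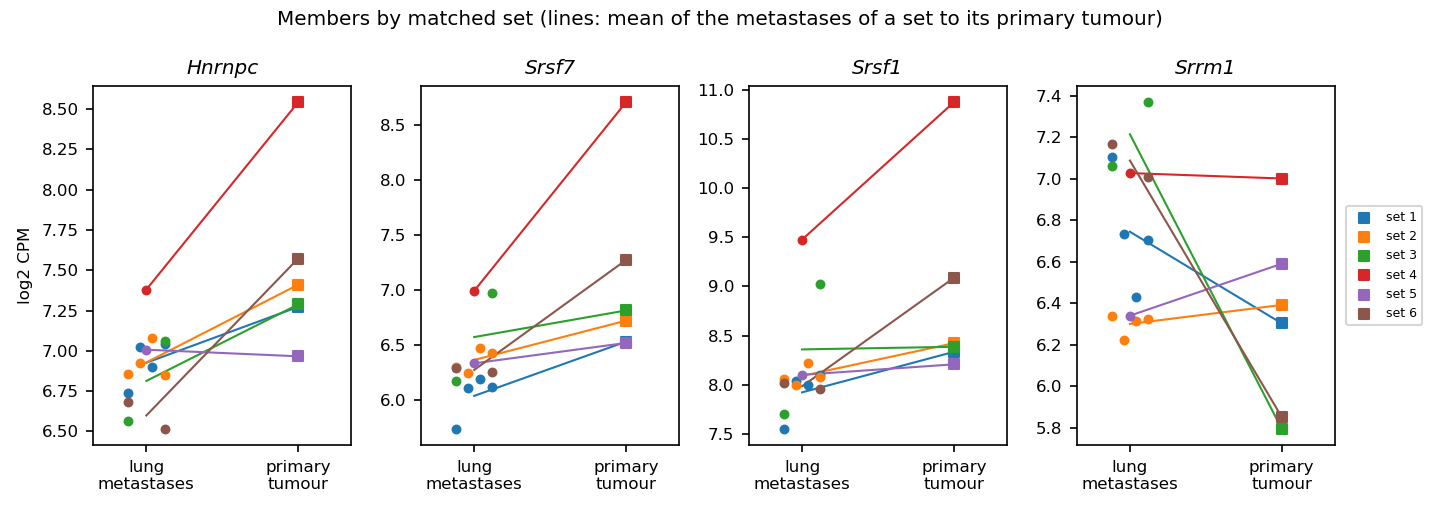
Log2 CPM of Hnrnpc, Srsf7, Srsf1 and Srrm1 (y axis) in the lung metastases (left) and primary tumour (right) of each matched set (colour), joined by lines from the mean of the metastases. Set 4 is the highest pair for the first 3 genes, and Hnrnpc is level in set 5.

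Of the 6 kinases none passed, and 5 had negative estimates. Srpk1, the best known SR protein kinase, ran from 5.96 to 7.04 log2 CPM in metastases (median 6.72) and from 6.64 to 7.22 in primary tumours (median 7.0), with metastasis 1-1 lowest. Its log2 fold change was -0.28 ± 0.151 (adjusted p = 0.230), lower in 5 of 6 sets, with -0.29 without the 3 libraries (adjusted p = 0.215) and -0.21 with the GC trend removed (adjusted p = 0.241). Clk2 had 4.21 to 5.68 log2 CPM in metastases (median 5.19) and 4.88 to 6.37 in primary tumours (median 5.29), where primary tumour 6 stood at 6.37 and metastasis 4-1 at 4.21. Its log2 fold change was -0.27 in all libraries (adjusted p = 0.224) and -0.27 with the GC trend removed (adjusted p = 0.317). It was -0.14 without the 3 libraries (adjusted p = 0.449) and -0.16 without set 6 (adjusted p = 0.597). Clk3, highest in GC content, had 3.73 to 5.84 log2 CPM in metastases (median 5.48) and 4.37 to 5.72 in primary tumours (median 5.46), and its 3 lowest values were those of metastases 4-1 and 3-2 and primary tumour 4. Its log2 fold change was -0.20 in all libraries (adjusted p = 0.465) and -0.02 without those 3 (adjusted p = 0.932), and -0.26 with the GC trend removed (adjusted p = 0.342). Clk1 had 6.07 to 8.0 log2 CPM in metastases and 6.19 to 9.74 in primary tumours, with a fold change of -0.05 on the log2 scale. Its paralogue Clk4 was at -0.34 ± 0.30, and Srpk2 at 0.07 ± 0.143.

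Of the 18 hnRNPs 1 fell, 8 had a positive and 10 a negative estimate. Hnrnpc ran from 6.52 to 7.38 log2 CPM in metastases (median 6.91) and from 6.97 to 8.54 in primary tumours (median 7.35). Metastasis 4-1 was the highest metastasis, and primary tumour 5, at 6.97, was the only primary tumour within the range of the other metastases. The level averaged 121 ± 19.3 CPM in metastases and 195 ± 89.8 CPM in primary tumours (SD, n = 14 and 6). The log2 fold change was -0.56 ± 0.136 (adjusted p = 0.0140), lower in 5 of 6 sets, and set 5 differed by 0.04 in the other direction. Without the 3 libraries it was -0.49 (adjusted p = 0.0151), and with the GC trend removed -0.42 (adjusted p = 0.00893). Over the 17 alternatives its adjusted p ran from 0.000912 to 0.266, and it passed in 12; it did not pass without set 2 or set 6, with summed metastases, or with either of those 2 indices. Hnrnpc shares 12.3% of its 50-base words with transcripts of 2 other genes.

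Hnrnph3, the lowest member per kilobase, had the largest negative estimate of the members, -0.75 ± 0.289 (adjusted p = 0.0994). It was -0.58 without the 3 libraries (adjusted p = 0.186) and -0.59 with the GC trend removed (adjusted p = 0.140). Hnrnph3 passed in 4 of 17 alternative fits. These were DESeq2 (adjusted p = 0.0473), no matched set as a block (0.0334), the skeletal muscle index as covariate (0.0375) and set 3 left out (0.0327). It ran from 2.75 to 4.34 log2 CPM in metastases (median 3.33) and from 3.65 to 5.52 in primary tumours (median 3.81), and metastasis 3-1 was the highest metastasis, above its own primary tumour. Its exons overlap Rufy2 on the other strand. Hnrnpa2b1, an hnRNP known for sorting RNA and for reading methylated adenosine, ran from 8.20 to 9.49 log2 CPM in metastases (median 8.47) and from 8.44 to 10.71 in primary tumours (median 8.90), and the fold change was -0.38 ± 0.183 on the log2 scale (adjusted p = 0.180). Without the 3 libraries Hnrnpa2b1 was at -0.33 (adjusted p = 0.0613), and with the GC trend removed at -0.27 (adjusted p = 0.152). The other 15 hnRNPs ran from -0.45 (Hnrnph1, a binder of G-rich runs) to 0.26 (Hnrnpa0). Hnrnpk, outside the naming rule and named after its values were seen, rose with the GC trend removed (log2 fold change 0.34, adjusted p = 0.0263) and not in all libraries (0.23, adjusted p = 0.482) or without the 3 (0.20, adjusted p = 0.215).

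Without the 3 libraries 0 members rose and 3 fell (Srsf1, Srsf7 and Hnrnpc), against 9.28% and 7.63% of all genes, and the members' median was -0.06. With the GC trend removed 1 member rose and 3 fell, against 10.8% and 7.73% of all genes, with a median of -0.10. When the skeletal muscle marker index was a covariate, 13 members were lower and 1, Srrm2, higher, 28.9% and 2.22% of the members against 11.8% and 15.6% of all genes. The index was -0.29 in primary tumour 4 and -2.06 in primary tumour 6, against 7.92 to 8.83 in the other 4 primary tumours, and the part of muscle tissue in these fits was not tested. With the lung epithelium index or the cell cycle index as covariate no member passed. With the lung epithelium index 3.03% of all genes were lower and 4.04% higher, and with the cell cycle index 1.95% and 2.76%. Without set 3, 9 members were lower, 20% of the members against 7.65% of all genes. That set holds metastasis 3-2, 1 of the 3 libraries that stood apart. Its other metastasis, 3-1, had the highest mitochondrial share of the 20 libraries (12.9% of counts). The part of either library in this count was not tested. Without set 2 or set 6 no member was lower, against 2.22% and 3.22% of all genes.

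Genes of the same pathway outside the 45 were counted from a list of 58 symbols, of which 57 were tested. Of these 3 rose and 1 fell, against 7.34% and 6.44% of all genes tested. Cirbp, a cold-inducible RNA-binding protein, averaged 57.3 ± 21.3 CPM in metastases and 20.2 ± 8.01 CPM in primary tumours (SD, n = 14 and 6), which is higher by 1.38 ± 0.250 on the log2 scale (adjusted p = 0.00322) and in 6 of 6 sets. Pcbp2, a poly(C)-binding hnRNP, averaged 561 ± 136 CPM in metastases and 251 ± 80.3 CPM in primary tumours, higher by 1.22 ± 0.230 on the log2 scale (adjusted p = 0.00388). Ptbp2, the neural paralogue of the polypyrimidine tract-binding protein, averaged 249 ± 123 CPM in metastases and 121 ± 92.5 CPM in primary tumours, and Hnrnpul1, an hnRNP U-like protein, averaged 147 ± 22.5 CPM in metastases and 197 ± 44.1 CPM in primary tumours. Ptbp2 rose by 1.47 ± 0.302 on the log2 scale (adjusted p = 0.00595), and Hnrnpul1 fell by 0.47 ± 0.126 (adjusted p = 0.0217), both in 6 of 6 sets. The median over the list was -0.08. Without the 3 libraries 6 of the list rose and 2 fell, against 9.28% and 7.63% of all genes. With the GC trend removed 7 rose and 2 fell, against 10.8% and 7.73% of all genes.

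Metastases of different sets were compared to see whether members differ between tumours beyond the spread within a set, over the 12 metastases of sets 1, 2, 3 and 6. Luc7l2, a U1 snRNP-associated factor for 5′ splice site choice, was the only member to pass (adjusted p = 0.0486), against 3.94% of 13878 genes. Its log2 CPM averaged 7.53 ± 0.434 in set 1, 7.13 ± 0.200 in set 2, 8.53 ± 0.741 in set 3 and 8.22 ± 0.0762 in set 6 (SD, n = 4, 4, 2 and 2). Srrm1 (adjusted p = 0.0503) and Srsf10 (adjusted p = 0.0620) followed, and 20 of 45 members had an unadjusted p under 0.05, 44.4% against 30.4% of all genes. Srrm1 averaged 6.74 ± 0.277 log2 CPM in set 1, 6.30 ± 0.0527 in set 2, 7.22 ± 0.218 in set 3 and 7.09 ± 0.113 in set 6. Set 3 holds metastasis 3-2, and without that library no member passed, against 0.858% of genes, while 10 had an unadjusted p under 0.05, 22.2% against 30.9% of all genes. With the GC trend removed 6 members passed, Luc7l2, Srrm1, Srsf10, Hnrnpa0, Srrm2 and Clk2, against 4.16% of genes, and with DESeq2 14 did, against 26.7%.

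Neat1, the long non-coding RNA that scaffolds paraspeckles, was used as a covariate, as the series title links it with splicing. Its level ran from 755 to 4314 CPM in the 14 metastases and from 309 to 1443 CPM in the 6 primary tumours, and primary tumours 4 and 6 were the highest primary tumours at 1443 and 1343 CPM. Within sets and tumour type, 0 of 45 members and 0 of 18451 genes passed in either direction by edgeR. At an unadjusted p under 0.05, 28 members were higher with Neat1 and 0 lower, against 12.7% and 12.4% of all genes (the 28 are 62.2% of members), and limma voom called 4 members (Luc7l2, Clk4, Rbm25 and Luc7l), against 2.5% of all genes. The 3 members of smallest p were Luc7l2, with a log2 change of 0.65 ± 0.142 per doubling of Neat1 (SE, adjusted p = 0.0578), Luc7l with 0.45 ± 0.119 (adjusted p = 0.0673) and Rbm25 with 0.51 ± 0.137 (adjusted p = 0.0674). The members' median was 0.30 and that of all genes 0.00, and 43 members had a positive value.

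The count of 28 changed with the libraries and settings used. It was 17 without set 1 and 19 without set 2, which hold none of the 3 libraries that stood apart. It was 13 without set 3, 9 without set 4, 28 without set 5 and 29 without set 6. With no low-count filter it was 19, and without the matched set as a block 18. The share of all genes at that p is not given for these fits, so these counts cannot be set against a background. With 1 set left out, the members' median ran from 0.22 (set 3) to 0.32 (set 5). That of all genes ran from -0.04 (without set 1) to 0.01 (without set 4). The cause of these moves was not tested. Without the 3 libraries 2 members had an unadjusted p under 0.05, against 6.38% of all genes, 32 were positive and the median was 0.09. In the 14 metastases alone 4 did, against 8.97% of all genes, with 30 positive and a median of 0.04. That fit did not carry the matched set as a block, so its slopes also hold differences between sets. With the GC trend removed in all 20 libraries, 25 were higher, against 12.6% of all genes, and none passed, against 0.234%. Without the matched set as a block 3 members passed (Luc7l2, Clk4 and Luc7l), against 5.06% of all genes. Luc7l2 was 0.48 ± 0.167 without the 3 libraries (adjusted p = 0.389) and 0.47 ± 0.124 with the GC trend removed (adjusted p = 0.0715). Luc7l was at 0.29 ± 0.156 and 0.41 ± 0.101 under those settings (adjusted p = 0.479 and 0.0648), and Rbm25 at 0.21 ± 0.137 and 0.34 ± 0.0897 (adjusted p = 0.538 and 0.0754).

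**Figure D5:**
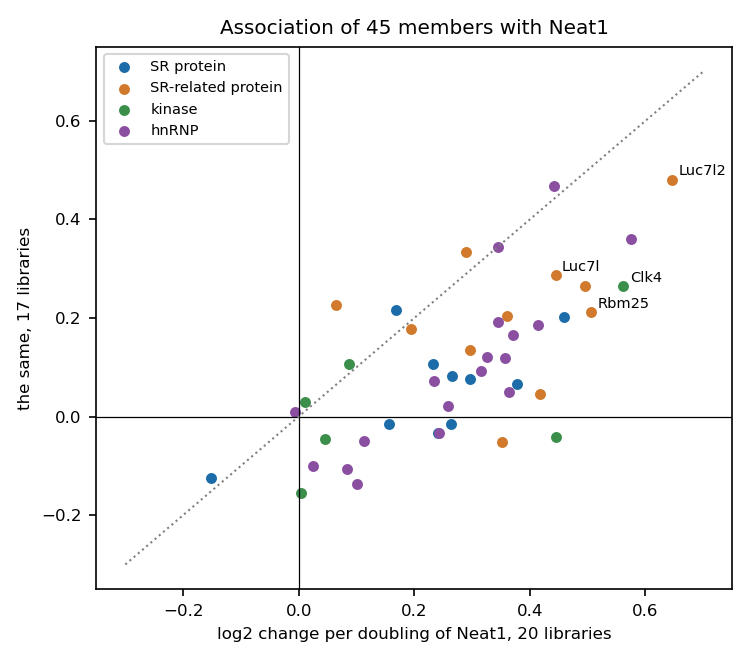
Log2 change per doubling of Neat1 of 45 members in 20 libraries (x axis) and in the 17 without metastases 3-2 and 4-1 and primary tumour 4 (y axis); the dotted line marks equal values. Most points lie below the line, and Luc7l2 is 0.65 on the x axis and 0.48 on the y axis.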

How the data were processed

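The authors deposited whole-number read counts per gene for 20 libraries with no normalization. Per the labels' protocols, libraries were stranded and ribosomal RNA was removed with Ribo-Zero Gold, and per the submitters' processing notes Trimmomatic 0.36, STAR and HTSeq were used with mm10. The annotation release and strand setting of the counting were unknown here. Gene IDs were matched to symbols in GENCODE vM21: all 45 members matched, 34 in the same version.

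Counts were tested with edgeR 4.0.16 in R 4.3.3 (filterByExpr, minimum count 10, TMM, robust quasi-likelihood) with the matched set as a block, over all genes, with Benjamini-Hochberg adjustment and a threshold of 0.05. Alternatives used DESeq2 1.42.0 and limma 3.58.1. The titles match each metastasis with a primary tumour; deviations of same-set samples from group means correlated by -0.178 to 0.348 (mean 0.0822, 1000 genes). Log2 CPM used a prior count of 2. The GC trend was a lowess fit with span 0.3. Transcript GC is that of the longest coding transcript. The steps were tested on simulated data. Members described in full for tumour type are those past the threshold or the 3 of smallest p per role. In the other comparisons the 3 of smallest p were named. Other members given with values, such as the examples in primary tumour 4, fall outside that rule and were named after their values were seen. The members, lists and tests were chosen with earlier results of these data known. Counting error at 20603620 or more reads is small beside the spread between libraries.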

Additional observations from a re-analysis of the deposited data

Results flagged for a closer look

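In 15 of 45 members, 1 of the 6 primary tumours stood far from the rest: the gap to its neighbour divided by the range was over 0.625, which chance gives in about 1 in 20 groups. That is 33.3% of the members, against 25.4% of the 18452 genes tested by the same measure. It was primary tumour 4 each time among the members, highest in 14 of them (31.1%) and lowest in 1. Among all genes tested, primary tumour 4 was the highest in 6.87% and the lowest in 15.05%. Among SR proteins the ratio was 0.67 for Srsf1, 0.83 for Srsf2, 0.655 for Srsf3, 0.843 for Srsf6 and 0.656 for Srsf7. Among SR-related proteins it was 0.775 for Tra2b and 0.74 for Pnn. Among hnRNPs it was 0.871 for Hnrnpa0, 0.64 for Hnrnpa2b1, 0.677 for Hnrnpa3, 0.759 for Hnrnpab, 0.745 for Hnrnpd, 0.634 for Hnrnpdl and 0.747 for Hnrnpk. For Clk3, with a ratio of 0.778, primary tumour 4 was the lowest. Its GC slope was -2.62 per 10 percentage points; the part of GC content in these gaps was not tested.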

How the results depend on the processing

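Of 204 refits of single named members, 180 kept direction and side of the threshold, 12 gained and 12 lost the call, and none reversed. The number of members lower in metastases, 2, was 3 with no replicate block and 0 with metastases summed per set, with the cell cycle index or with the lung epithelium index, and 13 with the skeletal muscle index; leaving out each set gave 0 to 9. The number higher, 0, became 1 with the GC trend removed and 1 with the skeletal muscle index. The number differing between sets, 1, became 14 with DESeq2, 6 with the GC trend removed, 2 with the lung epithelium index, and 0 with RLE scaling, with no low-count filter, without metastasis 3-2 and when any 1 of the 4 sets was left out. The number higher with Neat1, 0, became 4 with limma voom and 3 with no replicate block. The block changed no other of these counts by over 1.5 times. The cause of these moves was not tested.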
